A study of Mus musculus with 6 samples.

Results

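Genes of heme synthesis and breakdown were followed in mouse liver: Alas1, Alas2, Alad, Urod, Cpox, Ppox, Fech, Hmox1 and Blvrb. They were chosen by gene symbol for their place in the pathway, and all 9 were among the 12393 genes tested, through 15 probe sets. TFEB, a master regulator of genes for lysosomes and autophagy, had been delivered with an adenoviral vector to the livers of 3 Ppara KO mice, and 3 Ppara KO mice were not injected. All mice were of a C57 background and 1 month old, and both groups were labelled as lacking Ppara, whose nuclear receptor activates fatty acid oxidation genes. Each array is total liver RNA of 1 mouse. The series title describes the overexpression as liver-specific; neither the promoter of the vector nor the species of its TFEB is stated there or in the labels. The control mice received no vector, so effects of TFEB and of the adenoviral injection cannot be told apart.

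Heme is built in a relay between mitochondria and cytosol. It starts in the mitochondrion with 5-aminolevulinate synthase, whose housekeeping form is encoded by Alas1 and whose erythroid form is encoded by Alas2, continues in the cytosol, and returns to the mitochondrion for the last oxidations and the insertion of iron. In liver most heme goes into cytochromes P450, and heme itself represses Alas1. Heme oxygenase opens the ring to biliverdin, carbon monoxide and iron, and biliverdin reductase makes bilirubin, which hepatocytes conjugate and excrete.

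In the TFEB-injected livers 1 of the 9 genes rose and 4 fell, and 4 did not pass. A gene is said to have risen or fallen where limma, fitted over all 12393 genes, gave a Benjamini-Hochberg adjusted p under 0.05. By that rule 17.9% of all genes were called, 9.99% as higher and 7.92% as lower. Hmox1, for the inducible heme oxygenase, was the gene that rose, by 1.75-fold. Alas2, Cpox, Alad and Blvrb fell, by 1.75-fold, 1.37-fold, 1.17-fold and 1.20-fold. All levels are deposited log2 values, and all changes are TFEB-injected minus not-injected. The median change was -0.05 over the 9 genes and -0.01 over all genes tested.

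Promoter sequence is shown for 3 members because a motif of interest lay in it. The sequences are from RefSeq (GRCm38.p6), which had an entry for 7 of the 9 genes; none is shown for Fech or Hmox1. Each run is the 250 bases before the annotated start, 5′ to 3′ on the strand of the gene. Capitals mark CACGTG, the E-box that TFEB-family factors can bind, in Alad and Urod, and TTATCT, the reverse complement of the GATA motif AGATAA, in Alas2. The Alas2 sequence lies on the plus strand at chrX:150547167-150547416, and those of Alad and Urod lie on the minus strand at chr4:62520064-62520313 and chr4:116994414-116994663.
Alas2: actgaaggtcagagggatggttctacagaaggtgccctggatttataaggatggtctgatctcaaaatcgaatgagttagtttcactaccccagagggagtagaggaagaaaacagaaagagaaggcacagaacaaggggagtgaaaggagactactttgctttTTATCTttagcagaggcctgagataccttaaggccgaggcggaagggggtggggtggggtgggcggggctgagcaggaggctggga
Alad: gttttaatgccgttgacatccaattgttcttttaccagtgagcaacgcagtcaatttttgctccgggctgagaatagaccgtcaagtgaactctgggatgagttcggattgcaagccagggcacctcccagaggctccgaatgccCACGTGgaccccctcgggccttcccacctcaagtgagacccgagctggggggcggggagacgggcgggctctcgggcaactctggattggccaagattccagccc
Urod: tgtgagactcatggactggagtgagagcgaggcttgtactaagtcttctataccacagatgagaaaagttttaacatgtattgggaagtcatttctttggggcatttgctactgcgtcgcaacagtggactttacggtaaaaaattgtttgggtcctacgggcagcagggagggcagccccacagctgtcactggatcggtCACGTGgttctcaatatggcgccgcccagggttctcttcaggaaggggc
The search covered 300 bases, the 250 before and the 50 after the start, on both strands. Members are counted by gene, over all annotated starts of each, whereas the shares are by promoter entry, so the units differ. CACGTG was found in 2 of the 7 genes, Alad and Urod, and in 7.15% of all 32851 promoters. It begins 105 bases before the start shown for Alad and 49 bases before that of Urod. A separate CACGTG, outside the Alad sequence shown, begins 28 bases before a second annotated Alad start. AGATAA was also found in 2 of the 7, Alas2, at 86 bases before the start, and Cpox, at position 5 after it, and in 11.2% of all promoters. Neither TCACGTGA, the extended E-box found in 0.974% of promoters, nor TGACNNNGC, the antioxidant response core found in 12.4%, was in any of the 7. Of the genes with the E-box, Alad fell and Urod did not pass, as described below. These matches describe the letters and not binding.

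Of the isoenzyme genes of the first step, Alas2 fell and Alas1 did not pass. Alas1, for the housekeeping enzyme that limits the rate of heme synthesis in liver, had levels of 12.01, 11.80 and 11.37 in TFEB-injected livers, against 11.37, 11.30 and 11.44 in not-injected livers. Mice 1 and 2 of the injected group lay above every not-injected mouse, while mouse 3 lay among them. The means were 11.72 ± 0.33 in TFEB-injected and 11.37 ± 0.07 in not-injected livers (SD, n = 3 each). The log2 change of 0.35 ± 0.15 (SE) did not pass (limma, adjusted p = 0.150). Without TFEB-injected replicate 1 it was 0.21 (adjusted p = 0.300), and without TFEB-injected replicate 3 it was 0.53 and passed (adjusted p = 0.00466); without the other 4 arrays, 1 at a time, it did not pass. A further Alas1 probe set gave 0.32 (adjusted p = 0.146 over all named probe sets), with mouse 3 again the lowest of the injected mice at 10.59.

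Alas2, for the form known from developing red cells, was lower in every injected mouse. Its levels were 9.37, 9.32 and 9.12 in TFEB-injected livers, against 10.06, 10.08 and 10.09 in not-injected livers. The groups did not overlap, and the not-injected mice lay within a narrow span (SD 0.02, against 0.13 in TFEB-injected livers). The change was -0.81 ± 0.07 (limma, adjusted p = 4.09e-04), which ranks 220 of 12393 genes by size. Within each mouse, the Alas2 value minus the Alas1 value was -2.64, -2.48 and -2.25 in TFEB-injected livers, against -1.31, -1.22 and -1.35 in not-injected livers. The level of one probe set says nothing against that of another, so only the shift between groups is of use: it was -1.16, larger than the SD of 0.20 in TFEB-injected and 0.07 in not-injected livers. An exact two-sided permutation test of this difference over the 20 arrangements of the mice gave p = 0.10, the smallest that 3 against 3 allows.

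**Figure D1:**
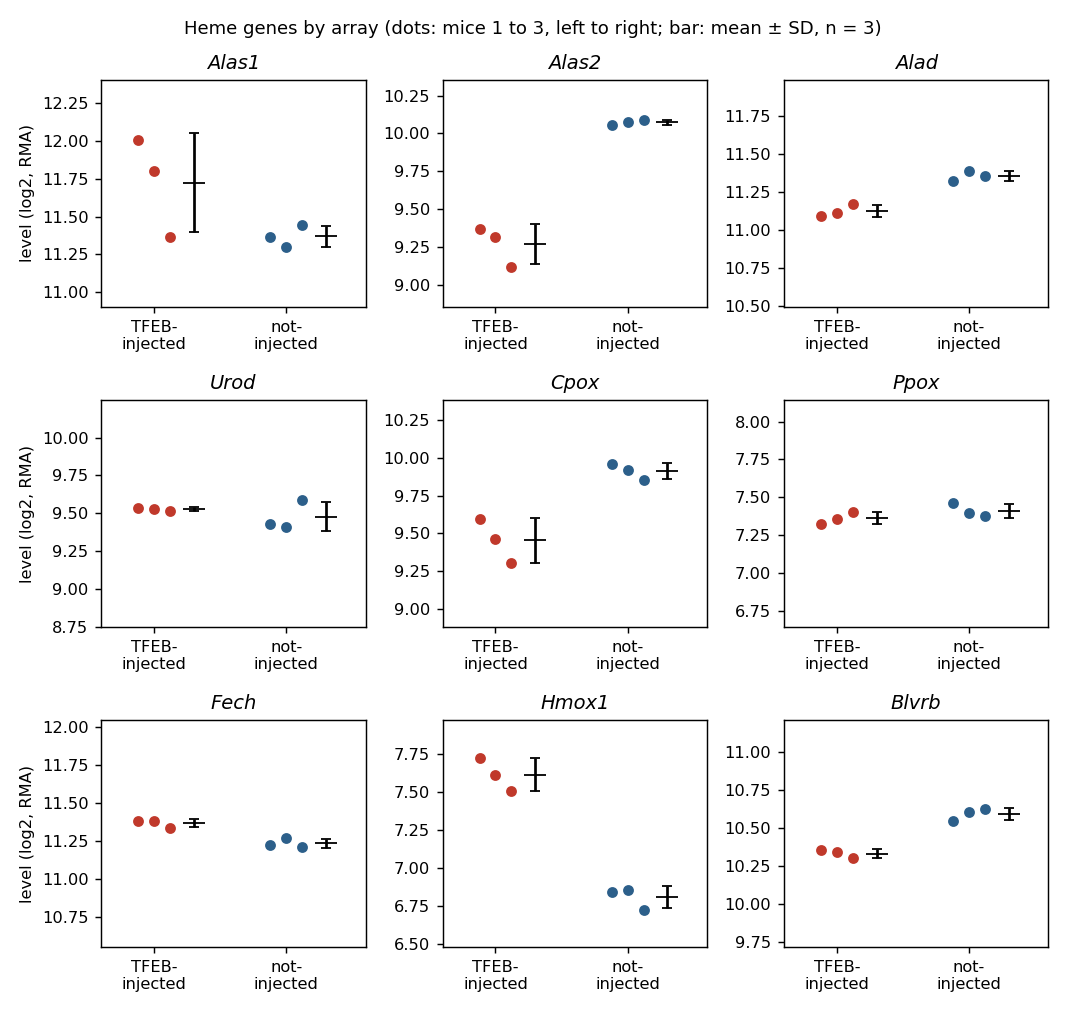
Level of each of the 9 genes on the log2 scale by array, with TFEB-injected mice in red on the left and not-injected mice in blue on the right of every panel; all panels span the same number of log2 units, and bars are mean ± SD (n = 3). The groups are apart for Alas2, Alad, Cpox, Fech, Hmox1 and Blvrb, and Alas1 of injected mouse 3, at 11.37, lies among the not-injected mice.

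Markers of red cells are given beside Alas2 because whole liver holds blood. In bulk tissue, fewer cells of a type and less RNA per cell cannot be told apart. Of 14 measured erythroid markers 1 rose, 1 fell and 12 did not pass, with a median change of -0.07. The calls were Car2, which rose by 0.83 ± 0.08, and Car1, which fell by 0.44 ± 0.06 on the log2 scale; both encode carbonic anhydrases, which other tissues also make. The other 12, among them Klf1 and Gata1, for erythroid transcription factors, ranged from -0.18 to 0.07 (limma, lowest adjusted p = 0.143). The summed linear level of the list was 1415 to 1591 in TFEB-injected and 1417 to 1510 in not-injected livers. This sum includes Car1 and Car2, which moved in opposite directions. None of these array values is 0, but 11 of the 14 markers lay below the median level of the genes tested, where RMA compresses changes.

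Probe sets annotated to several hemoglobin genes cannot be assigned to 1 gene, but they register globin RNA of blood. There were 4, with values between 10.08 and 13.58, and they were examined after the data had been seen. Their changes lay between -0.01 and 0.03, the groups overlapped in all 4, and the lowest adjusted p was 0.799 (limma over 22626 probe sets). The Alas2 change in the same livers was -0.81. The part of red cells in the Alas2 change was not tested.

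Of the genes for the cytosolic steps, Alad passed, with a small change, and Urod and Uros did not. Alad, for the enzyme that joins 5-aminolevulinate molecules into porphobilinogen, had levels of 11.09, 11.11 and 11.17 in TFEB-injected livers, against 11.32, 11.39 and 11.35 in not-injected livers. The groups did not overlap, and the change was -0.23 ± 0.05 (limma, adjusted p = 0.0141). This call was lost without TFEB-injected replicate 2 (adjusted p = 0.0655), without not-injected replicate 2 (0.0580), and with the replicate number as a block (0.0502), at changes of -0.22, -0.21 and -0.23. Uros, the uroporphyrinogen III synthase gene and not among the 9, gave -0.01 ± 0.05 (adjusted p = 0.935). Urod, for uroporphyrinogen decarboxylase, had levels of 9.54, 9.53 and 9.51 in TFEB-injected livers, against 9.43, 9.41 and 9.59 in not-injected livers. The groups overlapped, and the change was 0.05 ± 0.06 (adjusted p = 0.605).

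Of the genes for the later steps, which end in the mitochondrion, Cpox fell, and Ppox and Fech did not pass. Cpox, for coproporphyrinogen oxidase, had levels of 9.60, 9.46 and 9.30 in TFEB-injected livers, against 9.96, 9.92 and 9.85 in not-injected livers. Every injected mouse lay below every not-injected mouse, and mouse 3 was the lowest. The change was -0.46 ± 0.08 (limma, adjusted p = 0.00722), and a further Cpox probe set gave -0.54 ± 0.07 (adjusted p = 0.00196 over all named probe sets). The calls of Cpox, Alas2, Hmox1 and Blvrb held without any 1 of the 6 arrays, with adjusted p of at most 0.0365 for Cpox and 0.00405 for Alas2.

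Ppox, for protoporphyrinogen oxidase, had levels of 7.33, 7.36 and 7.41 in TFEB-injected livers, against 7.46, 7.39 and 7.37 in not-injected livers. The groups overlapped, and the change was -0.05 ± 0.05 (adjusted p = 0.557). Fech, for ferrochelatase, which inserts the iron, had levels of 11.38, 11.38 and 11.34 in TFEB-injected livers, against 11.22, 11.27 and 11.21 in not-injected livers. The groups did not overlap, as for 6 of the 9 genes and 37.1% of all genes tested, but the change of 0.13 ± 0.04 did not pass (adjusted p = 0.0833). The other 3 Fech probe sets gave 0.07, 0.02 and -0.10, and none passed. With the prior following intensity, with arrays weighted or with dim genes (below the median level) left out, the Fech change passed (adjusted p = 0.0224, 0.00432 and 0.0262). Its lead probe set is an _s_at one, which can detect related sequences; without such probe sets the change was 0.07 (adjusted p = 0.370), and with the mean of the Fech probe sets 0.03 (adjusted p = 0.657).

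**Figure D2:**
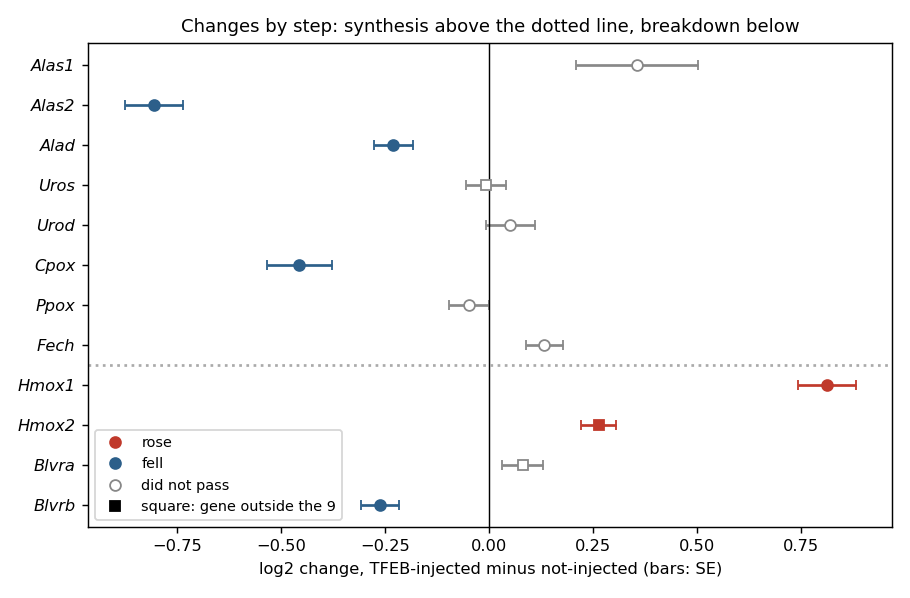
Log2 change (TFEB-injected minus not-injected) with its SE for the genes of each step, synthesis above the dotted line and breakdown below; circles are the 9 genes, squares Uros, Hmox2 and Blvra, and open symbols did not pass. Alas2 (-0.81) and Hmox1 (0.81) lie farthest from 0, on opposite sides, and Alas1 has the widest error.

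At the first step of breakdown, the heme oxygenase genes Hmox1 and Hmox2 rose. Hmox1 had levels of 7.73, 7.62 and 7.51 in TFEB-injected livers, against 6.84, 6.86 and 6.72 in not-injected livers. The groups were far apart compared with their spread, at 7.62 ± 0.11 and 6.81 ± 0.07 (SD, n = 3 each). The change was 0.81 ± 0.07 (limma, adjusted p = 4.09e-04), which ranks 213 of 12393 genes by size. Hmox2, the constitutive heme oxygenase gene and not among the 9, had levels of 10.45, 10.47 and 10.44 in TFEB-injected livers, against 10.17, 10.20 and 10.21 in not-injected livers. It rose by 0.26 ± 0.04 (adjusted p = 0.00550), and the call held without any 1 array.

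Of the biliverdin reductase genes, Blvrb fell and Blvra did not pass. Blvrb, for biliverdin reductase B, also known as flavin reductase, had levels of 10.35, 10.34 and 10.30 in TFEB-injected livers, against 10.55, 10.61 and 10.62 in not-injected livers. The groups did not overlap, and Blvrb fell by 0.26 ± 0.05 on the log2 scale (limma, adjusted p = 0.00778). Blvra, for the reductase that makes most bilirubin in adults, gave 0.08 ± 0.05 (adjusted p = 0.313). Of 3 measured genes for bilirubin uptake and export 0 passed by limma and 1 had an unadjusted p under 0.05. It was Abcc2, for the canalicular exporter of conjugated bilirubin (-0.19 ± 0.06; limma's adjusted p = 0.0647, with an unadjusted p of 0.0132).

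Macrophages, which take up aged red cells and express Hmox1, had higher markers in the injected livers. Of 14 measured macrophage and Kupffer cell markers 10 rose and 0 fell, with a median of 0.47; Cd5l (0.63 ± 0.05) and Vsig4 (0.50 ± 0.06) were examples. Their summed linear level was 11879 to 14309 in TFEB-injected and 9181 to 9488 in not-injected livers. The count of markers that rose was 7 without TFEB-injected replicate 2 and 13 without TFEB-injected replicate 3. It lay between these without any other array. The median shift of these markers was 0.59, 0.52 and 0.27 in injected mice 1, 2 and 3, where Hmox1 lay 0.92, 0.81 and 0.70 above the not-injected mean. Hmox1 and the median of the markers thus shared the order of the 3 mice, but single markers differed. Vsig4 followed that order (10.57, 10.52 and 10.40 in injected mice 1, 2 and 3). Cd5l was highest in mouse 2 (11.55, 11.59 and 11.50), and Clec4f ran the reverse (9.79, 9.82 and 9.83). The part of macrophages in the Hmox1 change was not tested. Measured hepatocyte markers, such as Alb and Ttr, had 0 of 7 calls by limma (median change 0.00), and 1 unadjusted p under 0.05, that of Cps1 (0.0214; adjusted p = 0.0905). They had summed levels of 169815 to 174453 in TFEB-injected and 174866 to 175241 in not-injected livers.

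Known regulators of the pathway were mixed. Of 14 measured, 1 rose, 3 fell and 10 did not pass (median -0.04). Bach1, for a heme-sensing repressor of Hmox1, had levels of 9.27, 9.21 and 9.03 in TFEB-injected livers, against 9.68, 9.74 and 9.76 in not-injected livers. It fell by 0.55 ± 0.07 on the log2 scale (limma, adjusted p = 0.00185), and a further probe set fell too, at -0.35. Mafg, for a partner of BACH1, fell (-0.30 ± 0.07), though a further probe set gave 0.08, as did Nr1i3, for the nuclear receptor CAR (-0.27 ± 0.06). The calls of Mafg and Nr1i3 were each lost without TFEB-injected replicate 2 or any 1 of the not-injected replicates (adjusted p up to 0.0751 and 0.0699), which left Bach1 alone among those that fell. Nfe2l2, for the activator NRF2, gave 0.12 ± 0.12 (adjusted p = 0.536), with 0.02 to 0.27 over the arrays left out. Without TFEB-injected replicate 3 it passed at 0.27 (adjusted p = 0.0160), so that 2 regulators rose, and 4 fell.

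Ppargc1a, for a coactivator known to induce Alas1 in fasted liver, was the regulator that rose. Its levels were 8.93, 9.73 and 10.42 in TFEB-injected livers, against 7.43, 7.44 and 7.46 in not-injected livers, a 4.77-fold rise (2.25 ± 0.32; limma, adjusted p = 0.00330). Injected mouse 3 had the highest Ppargc1a value and the lowest Alas1 value of its group, and mouse 1 the reverse. With 3 mice this is a description of their order.

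**Figure D3:**
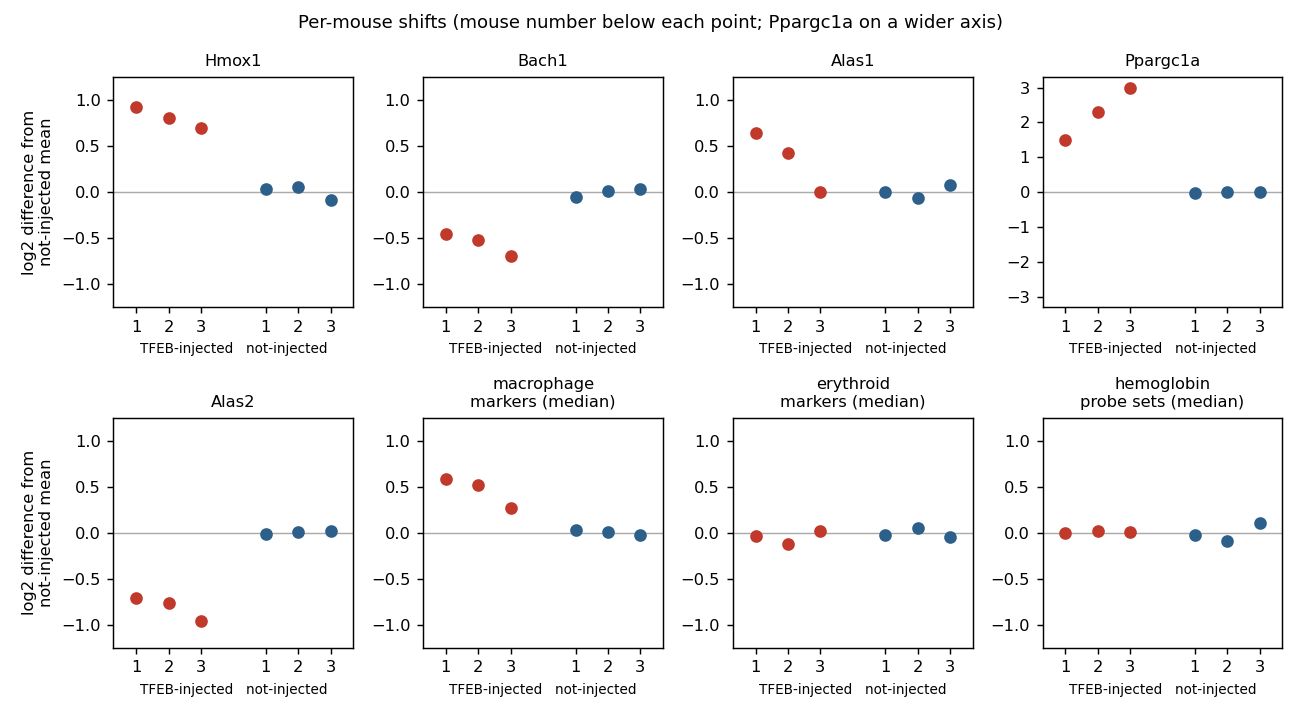
Difference of each mouse from the not-injected mean on the log2 scale, with TFEB-injected mice in red on the left and not-injected mice in blue on the right, for 5 genes and for the median of 14 macrophage markers, 14 erythroid markers and 4 hemoglobin probe sets. Among injected mice, Hmox1 and the macrophage median are highest in mouse 1 and lowest in mouse 3, and Ppargc1a runs the other way. The erythroid and hemoglobin medians stay between -0.13 and 0.11.

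Genes that move heme and its precursors went both ways, with 4 of 18 higher, 4 lower and 10 that did not pass (median 0.05). Those that rose were Abcg2, for an exporter that accepts porphyrins (0.66 ± 0.05), Tmem14c (0.37 ± 0.06), for an importer of protoporphyrinogen into the mitochondrial matrix, Slc25a37 (0.33 ± 0.05), for the iron importer mitoferrin 1, and Hpx (0.22 ± 0.05), for the plasma heme carrier hemopexin. Lrp1 (-0.24 ± 0.05), for the hemopexin receptor, fell, as did Slc46a1 (-0.24 ± 0.04), for a folate and heme transporter. Abcb10 (-0.27 ± 0.06), for a mitochondrial inner membrane transporter needed for heme synthesis in red cells, and Pgrmc1 (-0.16 ± 0.04), for a heme-binding membrane protein, fell too. The Hpx and Abcb10 calls were lost without TFEB-injected replicate 2 or any 1 of the not-injected replicates (adjusted p up to 0.0862 for Abcb10). With each array left out in turn, the Hpx change was 0.18 to 0.26. That of Lrp1 was lost without TFEB-injected replicate 2 or not-injected replicate 2 or 3 (up to 0.0523), and that of Pgrmc1 without any 1 of the 6 arrays (up to 0.129). The count of 4 that fell was 1 without TFEB-injected replicate 2, 2 without not-injected replicate 1 and 1 without not-injected replicate 2 or 3. A further Abcb10 probe set fell by more, at -0.40 (limma, adjusted p = 0.00566 over all named probe sets), while another gave -0.05 and did not pass. A further Slc46a1 probe set gave -0.20 and did not pass (adjusted p = 0.0961).

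Among 12 measured genes for proteins that carry heme, 5 rose and 2 fell (median -0.04). None of the 12 was a cytochrome P450 gene. With an array left out, 4 or 5 rose and 1 or 2 fell. Cytochrome genes of the respiratory chain were among those that rose, with Cycs, for cytochrome c, at 0.38 ± 0.04 and Cyc1, for cytochrome c1, at 0.33 ± 0.05. Sdhd (0.29 ± 0.05), for a heme-anchoring subunit of complex II, and Cybb (0.49 ± 0.07), for the phagocyte oxidase cytochrome, rose too. Tdo2, for the liver heme enzyme tryptophan dioxygenase, fell by 0.29 ± 0.04, and a further Tdo2 probe set gave -0.74. Mb (-0.20 ± 0.05), for myoglobin, fell, a call lost without TFEB-injected replicate 1 or 2 or not-injected replicate 1 or 3 (adjusted p up to 0.0794); its further probe set gave 0.12. The rises of Cycs and Cyc1 stood beside Cpox and Alas2, which fell in the same livers.

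The genes whose per-mouse pattern came closest to a member were sought for the members that passed with a change of at least 0.5 in size. Likeness was the root mean square difference over the 6 arrays, each gene taken from its own not-injected mean. This measure depends largely on the size of the group change, and shared regulation was not tested. For Alas2 the closest genes were Steap4 (0.04; change -0.86), Hnf4aos (0.04; change -0.84) and Slc38a2 (0.04; change -0.78). For Hmox1 they were Plin2 (0.05; change 0.80), Lyve1 (0.06; change 0.89) and Gpx7 (0.06; change 0.73). Lyve1 is a marker of sinusoidal and lymphatic endothelium, and Plin2 encodes a lipid droplet coat protein.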

How the data were processed

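Liver RNA of 6 mice was measured on Affymetrix arrays. RMA from the affy package was applied by the authors, per the submitters' processing notes (no version is stated there). It corrects background, equalises array distributions and summarises probes. The deposited values are log2 levels between 3.08 and 15.2, with array medians of 6.92 to 6.93. Quantile normalization hides overall shifts in RNA content, and RMA understates changes of dim genes.

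The labels give the groups and the replicate numbers and name the mice as biological replicates. The platform annotation gave 1 symbol to 20393 of 22690 probe sets, several to 691 and none to 1606; 64 were controls. Of those with 1 symbol, 20364 had gene IDs in the RefSeq table and 0 symbols were updated. Per gene the probe set with the highest mean over the 6 arrays was kept, which left 12393 genes from 20380 probe sets. limma 3.58.1 in R 4.3.3 (lmFit, eBayes) compared the groups, p-values were adjusted by Benjamini and Hochberg over the 12393 genes, and the threshold was 0.05. The number of arrays limits the precision. Correlations between arrays were 0.9952 to 0.9984 within TFEB-injected, 0.9984 to 0.9987 within not-injected livers and 0.9888 to 0.9934 between groups, with the lowest at TFEB-injected replicate 3.

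The members, the gene lists, the tests and the naming rule (the 9 members; of each list the called genes, at most 4 per direction by smallest p, or the smallest p where none passed; of called members changed by at least 0.5, the 3 nearest genes) were chosen with earlier results of these data known. Of the macrophage list 2 examples are printed, and genes of interest outside the rule (Uros, Blvra, Nfe2l2, Klf1, Gata1, Alb and Ttr) were added after their values were seen. Alternatives were the mean of probe sets, no _s_at or _x_at probe sets, every probe set, median centring, cyclic loess, a level filter, a trended robust prior, array weights, a replicate block and leaving out each array. The plots were made in Python 3.11.15 (matplotlib 3.10.9).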

Additional observations from a re-analysis of the deposited data

How the results depend on the processing

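The count of members that fell, 4, was 3 or 4 under all 15 alternatives: 3 to 4 with an array left out and 3 with the replicate block, where Alad missed the threshold. The count that rose, 1, was 1 to 2 with an array left out, with Alas1 added without TFEB-injected replicate 3. It was 2 with the intensity trend and robust prior, with Fech added, and 3 with array weights, with Alas1 (0.43) and Fech (0.15) added. With dim genes (below the median level) left out, Hmox1 was not tested and Fech made the count of 1. No member changed direction under any alternative. Alas2 ranged from -0.86 to -0.73, Cpox from -0.53 to -0.38, Blvrb from -0.29 to -0.24 and Hmox1 (14 alternatives) from 0.75 to 0.87, each past the threshold throughout. The Alas2 shift minus the Alas1 shift was -1.27 to -1.07 with an array left out, -1.14 with the mean of probe sets and -1.18 with cyclic loess. The replicate numbers do not pair the mice by the labels, and same-numbered mice did not deviate together (correlations of 0.01, -0.13 and -0.11). The share of all genes called was 9.92% to 19.4% with an array left out. Detection calls were not used here, and the number of mice and their spread set the precision.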
